A study of Arabidopsis thaliana with 8 samples.

Results

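The comparison described here is the difference between dTLec and wild-type Arabidopsis thaliana leaves that was shared by control and systemic leaves. dTLec stands for dTLec1-1, a SALK insertion line, that is, a line in which a piece of foreign DNA has inserted into the genome. All 8 arrays of the series were used, 4 from each genotype and 2 from each of the 4 groups: wild-type control leaves, wild-type systemic leaves, dTLec control leaves and dTLec systemic leaves. Both genotypes are labelled as ecotype Col-0, and all plants were 5 weeks old and grown at 21 °C on short days (10 h light, 14 h dark), after 2 days on soil as seeds at 4 °C in the dark. Tweezers were used to crush some of the rosette leaves across the midvein, and leaves were harvested for RNA after 2 h. Systemic leaves are, in the usual sense, the uncrushed leaves of a crushed plant. The genotype is represented by 1 insertion line, and the labels do not name the interrupted gene, so its transcript was not checked. The labels also do not say whether control leaves came from unwounded plants or whether replicates came from separate plants, so the p-values reflect only how far these arrays lie apart, and that spread may be technical.

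A leaf that is crushed makes jasmonates, lipid-derived hormones that switch on defence and repair genes, and signals from the wound start the same programme in distant leaves of the plant. Enzymes that methylate or oxidise jasmonic acid then change or remove the hormone. Class III peroxidases, glucosidases and lectins are among the proteins that leaves make in defence. The mean genotype effect is the log2 difference dTLec minus wild type, averaged over the 2 leaf types. A log2 difference of 1 is a 2-fold difference.

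Of 22746 probe sets tested, 103 (0.453%) passed an adjusted p of 0.05 for the mean genotype effect in limma's moderated test, 35 of them higher in dTLec (0.154%) and 68 lower (0.299%). At an unadjusted p under 0.05 there were 3603 (15.8%). A probe set was counted as differing the same way in both leaf types when it passed and when, in control leaves and again in systemic leaves, both dTLec arrays lay above both wild-type arrays, or both lay below. This held for 87 of the 103 (0.382% of all probe sets), 34 higher (0.149%) and 53 lower (0.233%). Without the test, 3609 probe sets (15.9%) had such a separation, 1997 higher (8.78%) and 1612 lower (7.09%). In 64 of the 87, every dTLec array lay outside the range of all 4 wild-type arrays, also across leaf types. Over all probe sets, which were not selected for separated genotypes, this share was 8.12%. The platform annotation gave 1 gene to 43 of the 87, 13 higher and 30 lower, and no name to the other 44.

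These counts rested on few arrays. The number past the threshold was 0 without wild-type systemic replicate 1, wild-type systemic replicate 2, dTLec control replicate 1 or dTLec control replicate 2, was 3 and 14 without dTLec systemic replicates 1 and 2, and was 490 and 793 without wild-type control replicates 1 and 2 (limma). A model with genotype and leaf type but no difference of the genotype effect between leaf types passed 7 probe sets, 1 higher and 6 lower. The replicate arrays of a group correlated across probe sets with r between 0.992 and 0.996. These values are no sign of stable counts, since the difference between replicate numbers had been removed before deposit.

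**Figure D1:**
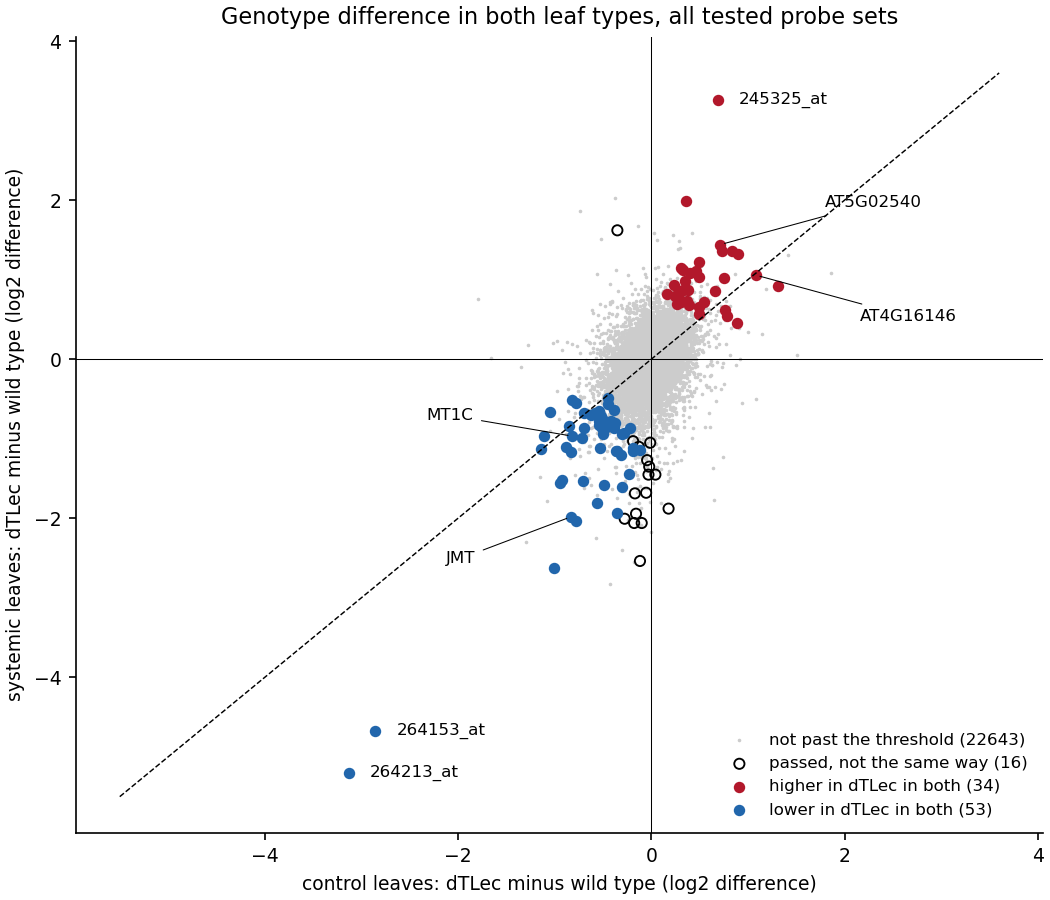
Each point is a probe set, with the log2 difference dTLec minus wild type in control leaves on the x axis and in systemic leaves on the y axis; the dashed line marks equal differences. The 34 red and 53 blue points differed the same way in both leaf types, most of them lie farther from 0 on the y axis than on the x axis, and 264213_at and 264153_at lie far from all others.

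The largest differences were at probe sets that the annotation used here does not name. At 264213_at the log2 level was 7.31 and 8.35 on the wild-type control arrays, 9.89 and 9.70 on the wild-type systemic arrays, 4.85 and 4.55 on the dTLec control arrays, and 4.87 and 4.32 on the dTLec systemic arrays. The genotypes were far apart in both leaf types, and the dTLec arrays stayed within a range near the low end of the measured values, which began at 3.24. The mean genotype effect was −4.16 ± 0.24 as a log2 difference (SE, 4 arrays per genotype, limma adjusted p 0.00772), which is 17.9-fold on the scale of the normalized values. No detection calls were used here, so folds of probe sets whose dTLec levels lie near the low end of the range, this one and 264153_at among them, may understate the difference.

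The second, 264153_at, had a like pattern. Its log2 levels were 7.41 and 8.46 in wild-type control leaves, 9.81 and 9.68 in wild-type systemic leaves, 5.29 and 4.87 in dTLec control leaves, and 5.33 and 4.82 in dTLec systemic leaves. Its mean genotype effect was −3.76 ± 0.24 (limma adjusted p 0.00826), or 13.6-fold on the same scale. On both probe sets the systemic wild-type arrays were above the control wild-type arrays, while the dTLec arrays of the leaf types overlapped. These were also 2 of the 7 probe sets that passed in the model without a difference between leaf types, and both still passed without either dTLec systemic array.

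Among unnamed probe sets that were higher in dTLec, 245325_at led. Its log2 levels were 8.64 and 9.0 in wild-type control leaves, 5.85 and 5.78 in wild-type systemic leaves, 9.43 and 9.61 in dTLec control leaves, and 9.31 and 8.83 in dTLec systemic leaves. The 2 wild-type systemic arrays were low, and the other 6 lay between 8.64 and 9.61. The mean effect of 1.97 ± 0.13 (limma adjusted p 0.00875) was the mean of unequal parts, 0.69 ± 0.19 in control leaves and 3.26 ± 0.19 in systemic leaves. For 260957_at the mean effect was 1.18 ± 0.11 (limma adjusted p 0.0317), with 0.36 in control and 1.99 in systemic leaves. Of the 21 differences of at least 2-fold among the 87, 12 were at unnamed probe sets, and 44 of all 87 were unnamed.

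**Figure D2:**
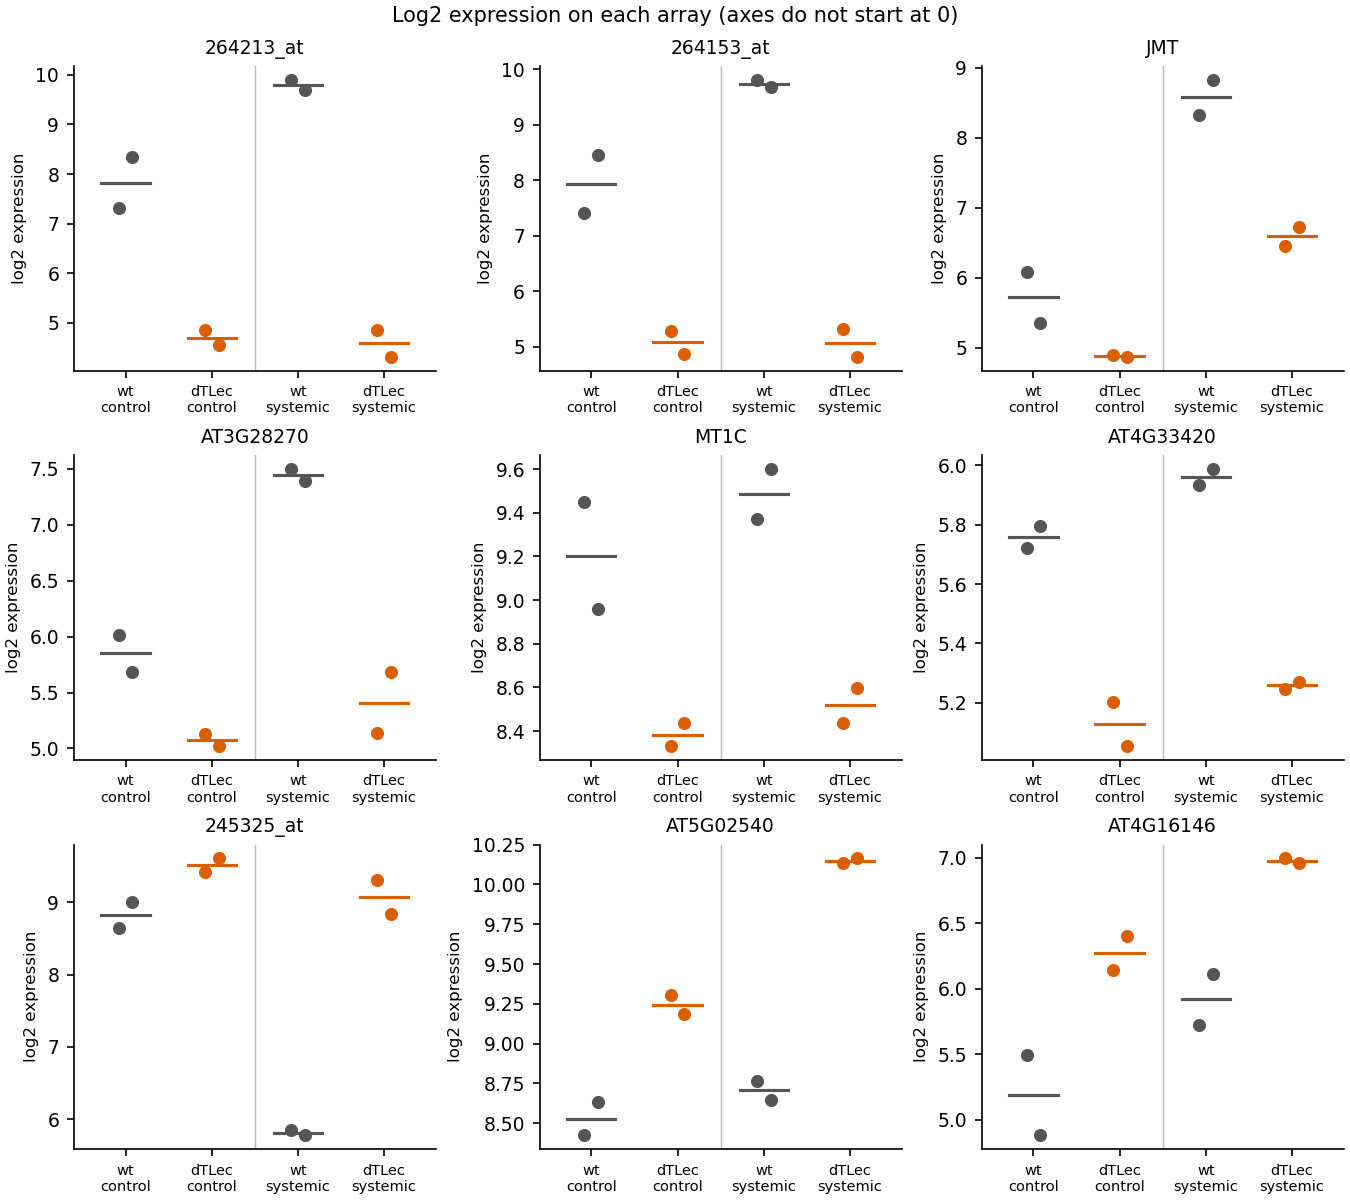
Log2 expression (y axis, which does not start at 0) of 9 probe sets or genes in the 4 groups on the x axis; each point is 1 array and each bar is the mean of 2 arrays, grey for the wild type and orange for dTLec. As the selection requires, the dTLec points lie on one side of the wild-type points within each leaf type, for instance 4.55 and 4.85 against 7.31 and 8.35 for 264213_at in control leaves.

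The named genes that were lower in dTLec included 6 with a mean difference of at least 2-fold. JMT encodes the methyltransferase that turns jasmonic acid into methyl jasmonate. Its log2 level was 6.09 and 5.36 in wild-type control leaves against 4.91 and 4.87 in dTLec, and 8.33 and 8.83 in wild-type systemic leaves against 6.46 and 6.73 in dTLec. The genotypes did not overlap in either leaf type, although the wild-type control arrays and the dTLec systemic arrays lay close together. The mean genotype effect was −1.41 ± 0.18 (SE, n = 4 arrays per genotype, limma adjusted p 0.0435), a 2.65-fold lower level.

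AT3G28270 had the same fold, with an effect of −1.41 ± 0.14 (limma adjusted p 0.0317). Its log2 level was 6.02 and 5.69 in wild-type control leaves, 5.13 and 5.02 in dTLec control leaves, 7.5 and 7.39 in wild-type systemic leaves, and 5.14 and 5.68 in dTLec systemic leaves. All 4 dTLec arrays were below all 4 wild-type arrays. AT3G28220, which encodes a protein with a MATH domain, differed by −1.18 ± 0.13 (limma adjusted p 0.0365), from 9.78 and 9.38 to 8.89 and 9.16 in control leaves and from 11.39 and 11.21 to 9.34 and 9.64 in systemic leaves. These 2 loci are near each other, with 4 protein-coding genes between them in the TAIR10.1 gene table, and were the one pair of named genes among the 43 that lay within 10 genes of each other. The 43 were spread over the 5 chromosomes at between 0.299% (chromosome 5) and 0.348% (chromosome 1) of the named probe sets tested there.

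Several of the other lowered genes encode enzymes. BGLU40, encoding a beta-glucosidase, an enzyme class that releases sugars from glycosides, had log2 levels of 8.55 and 7.88 in wild-type control leaves, 7.24 and 7.30 in dTLec control leaves, 10.65 and 10.82 in wild-type systemic leaves, and 8.97 and 9.39 in dTLec systemic leaves. It was lower in dTLec by 2.38-fold (−1.25 ± 0.16, limma adjusted p 0.0435), and the effect was −0.94 in control and −1.55 in systemic leaves. AT2G34810, of the berberine bridge enzyme-like family of flavin oxidases, differed by −1.12 ± 0.14, and AT3G57020, a strictosidine synthase-like gene, was 1.99-fold lower (limma adjusted p 0.0415 and 0.0317). GLC (GLAUCE), an acyltransferase gene, was lower by 1.77-fold, with all dTLec arrays between 5.36 and 5.55 and all wild-type arrays between 5.90 and 6.54. MSRB6, which encodes a methionine sulfoxide reductase that repairs oxidised methionine, was lower by 1.69-fold, and IRX15-L, a gene of xylan synthesis in cell walls, by 1.94-fold. The IRX15-L effect was −0.30 ± 0.17 in control leaves, where its log2 levels lay between 4.42 and 4.93, and −1.61 ± 0.17 in systemic leaves.

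AT5G44050, of the MATE family of efflux transporters, differed by −1.14 ± 0.13 (limma adjusted p 0.0369), with −0.36 ± 0.19 in control and −1.93 ± 0.19 in systemic leaves. AT5G02940, encoding a channel-like protein, differed by −0.84 ± 0.10, with −0.23 ± 0.14 in control and −1.44 ± 0.14 in systemic leaves. In control leaves its genotypes nearly touched, at 8.59 and 8.25 in the wild type and 8.18 and 8.20 in dTLec. AT4G19450, of the major facilitator superfamily, differed by −0.78 ± 0.10, and its log2 levels were 7.92 and 8.09 in wild-type control, 7.5 and 7.13 in dTLec control, 8.06 and 8.21 in wild-type systemic and 7.24 and 7.29 in dTLec systemic leaves. All its dTLec arrays lay below all its wild-type arrays. MT1C, a metallothionein gene whose small protein binds metal ions, was 9.45 and 8.96 in wild-type control, 8.33 and 8.44 in dTLec control, 9.37 and 9.60 in wild-type systemic and 8.44 and 8.60 in dTLec systemic leaves, a mean difference of −0.89 ± 0.13 (limma adjusted p 0.0492). The last of the 15 lowest were AT3G44450 at −0.76 ± 0.10, and AT1G76240 at −0.75 ± 0.11.

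The remaining 15 lowered genes with a name had mean effects between −0.72 and −0.47 and are described here because they complete the set, having been chosen after their values were seen. AT5G15950 and AT3G25570 both encode S-adenosylmethionine decarboxylases, enzymes of polyamine synthesis, and differed by −0.72 ± 0.10 and −0.67 ± 0.08 (limma adjusted p 0.0466 and 0.0369). AT5G15950 had log2 levels between 7.87 and 8.57 on the wild-type arrays and between 7.35 and 7.64 on the dTLec arrays. JAL23, a jacalin-related lectin, differed by −0.67 ± 0.10 (limma adjusted p 0.0492), but its log2 levels in control leaves, 4.95 and 4.65 in the wild type and 4.60 and 4.62 in dTLec, barely separated. The peroxidase gene AT4G33420 was the one named gene that also passed in the model without a difference between leaf types. Its log2 levels were 5.72 and 5.79 in wild-type control leaves, 5.20 and 5.05 in dTLec control leaves, 5.93 and 5.99 in wild-type systemic leaves, and 5.25 and 5.27 in dTLec systemic leaves. The groups were apart by more than their spread, at −0.67 ± 0.07 (limma adjusted p 0.0369; 0.0493 in the model without that difference).

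Others in this group were AT4G34950, a major facilitator gene (−0.60), AT1G75280, an isoflavone reductase-like gene (−0.66), the serine carboxypeptidase-like gene scpl46 (−0.63), the receptor kinase gene AT1G51805 (−0.62), and AT5G65470, encoding an O-fucosyltransferase family protein (−0.68). AT2G41120, AT4G35110, AT5G61340, AT1G24575, AT1G59710 and AT2G19650 lay between −0.69 and −0.47. Mean log2 levels in this group ranged from 5.21 for JAL23 to 11.44 for AT4G34950, whose arrays lay between 11.08 and 11.99.

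**Figure D3:**
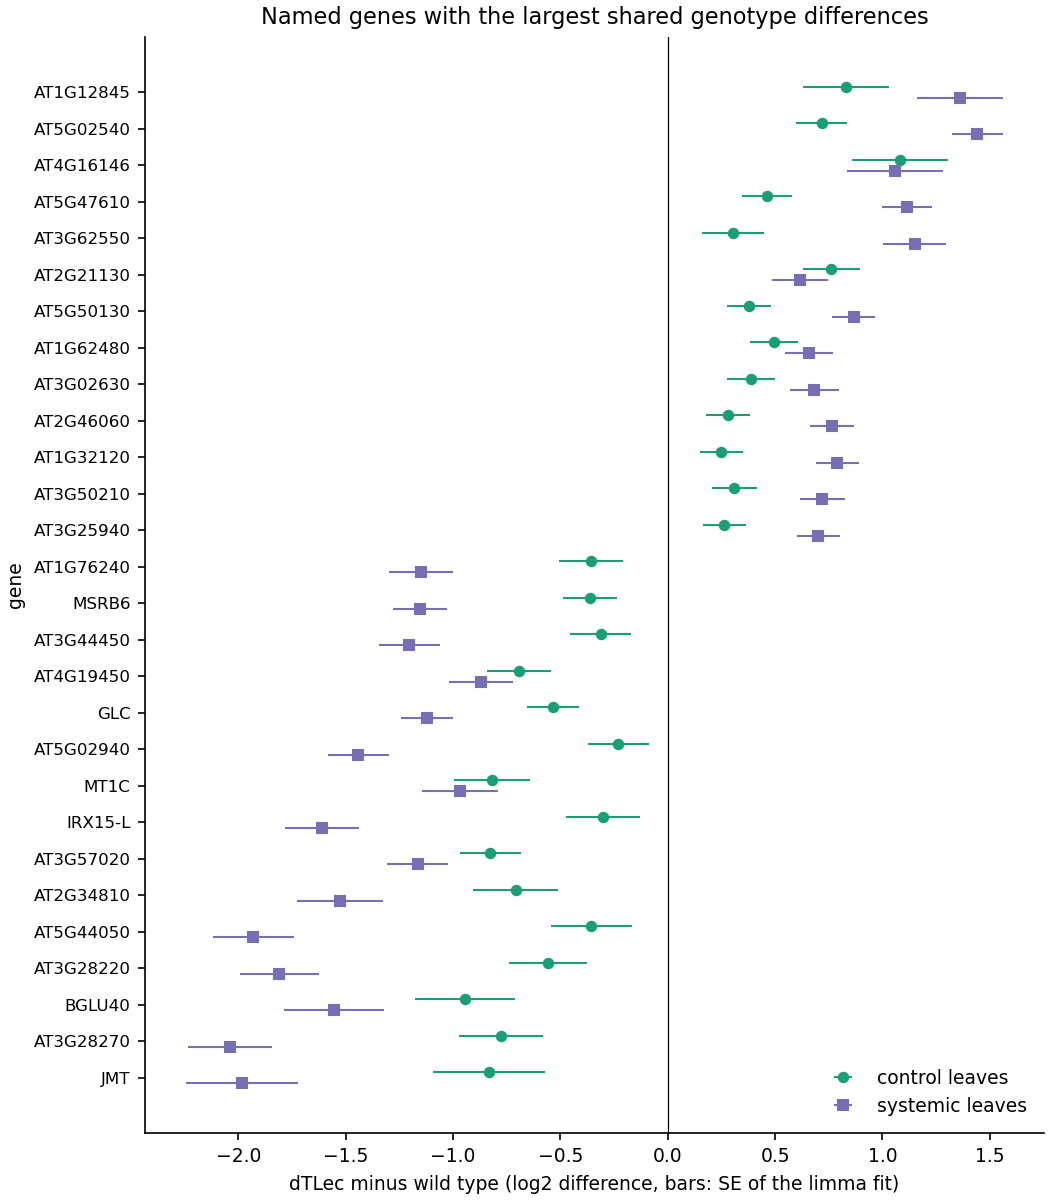
Log2 difference dTLec minus wild type (x axis) in control leaves (green circles) and in systemic leaves (purple squares) for 28 named genes (y axis), with bars for the SE of the limma fit. Both points of a gene lie on the same side of 0, as the selection requires, and AT4G16146 and AT2G21130 are the genes whose control difference is at least as large as the systemic one.

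Fewer named genes were higher in dTLec, 13, of which 3 had a mean difference of at least 2-fold. AT5G02540, of the short-chain dehydrogenase/reductase family, had the lowest adjusted p among all named genes. Its log2 levels were 8.42 and 8.63 in wild-type control leaves, 9.30 and 9.19 in dTLec control leaves, 8.77 and 8.65 in wild-type systemic leaves, and 10.13 and 10.16 in dTLec systemic leaves. Every dTLec array was above every wild-type array, and the mean effect was 1.08 ± 0.08 (SE, n = 4 arrays per genotype, limma adjusted p 0.0165), 2.11-fold. A further gene of that enzyme family, AT5G50130, was higher by 0.62 ± 0.07 (limma adjusted p 0.0369).

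AT1G12845, to which no role is given here, had the largest mean effect of the named genes that were higher, 1.10 ± 0.14 (limma adjusted p 0.0435). Its log2 levels were 6.99 and 7.38 in wild-type control, 7.97 and 8.06 in dTLec control, 6.17 and 6.23 in wild-type systemic and 7.83 and 7.29 in dTLec systemic leaves, so that a dTLec systemic array (7.29) lay below a wild-type control array (7.38). AT4G16146, annotated as related to a phosphoprotein regulated by cyclic AMP in animals, had the most even estimates of the named genes. It was 5.49 and 4.88 in wild-type control leaves against 6.14 and 6.4 in dTLec, and 5.72 and 6.11 in wild-type systemic leaves against 6.99 and 6.96 in dTLec. The difference was 1.08 ± 0.22 in control and 1.06 ± 0.22 in systemic leaves, with a mean of 1.07 ± 0.16 (limma adjusted p 0.0496).

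The other 10 genes that were higher had mean effects between 0.48 and 0.79. AT5G47610, encoding a RING-type ubiquitin ligase, was higher by 0.79 ± 0.08, with dTLec arrays between 7.16 and 7.33 and wild-type arrays between 6.01 and 6.91. AT3G62550, a gene of the universal stress protein family, was among the most abundant, and its log2 levels were 11.77 and 11.53 in wild-type control, 11.78 and 12.12 in dTLec control, 10.66 and 10.63 in wild-type systemic and 11.83 and 11.77 in dTLec systemic leaves. The genotypes nearly touched in control leaves, and the mean effect was 0.73 ± 0.10 (limma adjusted p 0.0492). AT2G21130, a cyclophilin gene whose protein helps others to fold, was higher by 0.69 ± 0.09, from 6.2 and 6.03 to 6.79 and 6.96 in control leaves and from 6.50 and 6.33 to 6.94 and 7.12 in systemic leaves. AT1G62480, encoding a protein related to a vacuolar calcium-binding protein, was higher by 0.58 ± 0.08, and AT3G02630, a stearoyl-acyl carrier protein desaturase gene of fatty acid synthesis, by 0.54 ± 0.08. AT2G46060 (0.52), AT1G32120 (0.52), AT3G50210, encoding a 2-oxoglutarate-dependent oxygenase (0.52), and AT3G25940 (0.48) completed the set, and the adjusted p of these 4 lay between 0.0474 and 0.0492 (limma).

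How even the effect was between leaf types was examined with the difference of the genotype effects, systemic minus control, which uses other combinations of the same arrays. No probe set passed for this difference after adjustment (0 of 22746, limma), and at an unadjusted p under 0.05 there were 1481 (6.51%). Of the 87, 47 were under that unadjusted threshold, and the lowest adjusted p among them was 0.132. The SE of the mean effect was about the same for the 87 (median 0.0919) as for all probe sets (0.0863). The difference between leaf types was estimated less precisely, for JMT with an SE of 0.37 against 0.18 for the mean effect. The count of 0 therefore does not show that the effects were equal. The size of the difference was larger in systemic leaves for 75 of the 87 (86.2%), against 63.9% of the 13732 probe sets with the same sign in both leaf types, which were 60.4% of all tested. Both conditions held at 38.6% of all tested. The median was −0.53 in control and −0.94 in systemic leaves for the 53 that were lower, and 0.48 and 0.89 for the 34 that were higher.

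For some genes the estimated differences in the 2 leaf types lay close together. Among the 43 named genes, the effects of 10 differed by less than 0.2 between leaf types. The share over all probe sets was not counted, so this count does not set these genes apart. Over all probe sets the median size of the effect was 0.09 in control and 0.13 in systemic leaves. For AT4G16146 the difference of effects was −0.03, with a 95% interval from −0.77 to 0.72, for MT1C −0.15 (−0.74 to 0.44), for AT4G33420 −0.07 (−0.43 to 0.28), for scpl46 −0.09 (−0.52 to 0.34) and for AT2G19650 −0.04 (−0.36 to 0.28). All 5 intervals hold 0, which follows from choosing small differences and is no test of evenness. The widest was that of AT4G16146. At the other end, AT5G44050 (−1.57, −2.20 to −0.95), IRX15-L (−1.31, −1.88 to −0.73) and AT5G02940 (−1.21, −1.69 to −0.74) had intervals that did not reach 0, before any adjustment for the number of probe sets. These were likewise chosen for their large differences. Across all probe sets, which are not independent and share their normalization, the control and systemic differences correlated with r = 0.378.

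In the 16 probe sets that passed without differing the same way, the larger difference was in systemic leaves. In 14 of them the genotypes overlapped in control leaves, in none did they overlap in systemic leaves, and in 3 the signs were opposite. The named ones were AT1G10585, encoding a bHLH protein (−0.12 in control and −2.54 in systemic leaves), AT1G66760, of the MATE family (−0.18 and −2.06), AT4G17470 (−0.28 and −2.01), the aspartyl protease gene AT5G19110 (0.18 and −1.88), AT3G48460 (−0.03 and −1.45) and AT2G30050 (−0.19 and −1.03).

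Gene groups were described by counts beside the shares for all probe sets. In 38 lists of pathways and families and 8 of cell type markers, 328 genes were measured by name. Of these, JMT, JAL23 and scpl46 passed (3, or 0.915%), all lower in dTLec. Of all probe sets 0.453% passed, and of all 13350 genes measured by name 13 passed as higher and 36 as lower. The lists and members were chosen with earlier results of these data known, so these shares are not like for like. The list of jasmonate synthesis and turnover had 6 of 17 genes measured by name, and 1 passed (JMT). All 6 had a mean effect below 0, as had 10064 of all 22746 probe sets. Their median was −1.06, made of −0.20 in control and −1.65 in systemic leaves, against 0.02 for all probe sets. Because this list was chosen with earlier results known, the contrast only describes its members and is no independent evidence. The jasmonic acid oxidases JRG21 (JOX3), AT5G05600 (JOX2) and AT2G38240 (JOX4) had −1.36, −1.16 and −0.96, and OPCL1, which acts in jasmonate synthesis, −0.52, with adjusted p between 0.0909 and 0.292 (limma). The fourth oxidase, AT3G11180 (JOX1), had −0.11 (0.13 in control and −0.34 in systemic leaves, adjusted p 0.67, limma). The wild-type control arrays lay farthest apart for AT2G38240 (8.15 and 6.47) and JRG21 (5.35 and 4.29). They were closer for AT5G05600 (8.71 and 7.85) and JMT (6.09 and 5.36), and near each other for OPCL1 (8.03 and 7.95) and AT3G11180 (4.22 and 4.08). The part of this spread in the result was not tested.

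In the other lists given by locus no member passed. GI, a circadian clock gene and the 1 clock gene of 18 measured by name, had log2 levels of 7.55 and 7.85 in wild-type control, 8.64 and 8.77 in dTLec control, 8.02 and 7.81 in wild-type systemic and 8.36 and 8.14 in dTLec systemic leaves. All dTLec arrays were above all wild-type arrays, by 0.67 ± 0.11, with an adjusted p of 0.0572 (limma). The 4 measured cold and dehydration genes had a median of −0.41, the 2 glucosinolate genes −0.51 (BCAT4 −0.64 and UGT74B1 −0.38), the 2 jasmonate response genes 0.22, the 2 salicylate genes −0.13, the 2 oxidative stress genes −0.03, and APL3 of the senescence and sugar list 0.21. None of these 13 genes passed.

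Among families defined by symbol, 1 of 5 lectin genes passed (median −0.35), JAL23, while EULS3, a lectin of the Euonymus type, had −0.66 and an adjusted p of 0.145 (limma). Of 29 serine carboxypeptidase-like genes 1 passed, and the median was 0.02. None passed among 47 UDP-glycosyltransferases (median −0.04), 24 cytochromes P450 (0.07), 28 light-harvesting and photosystem genes (−0.04), 69 plastid-encoded genes (−0.01), 22 trichome birefringence-like genes (−0.04), 15 ribosomal protein genes, all plastid-encoded (0.02), 14 expansins (0.06), 14 sugar transporters, all of the SWEET family (0.06), 13 glutathione transferases (−0.02), 11 auxin genes (0.12), 9 U-box ligases (−0.24), 9 xyloglucan hydrolases (0.03), 7 cellulose synthase-related genes (−0.21), 7 calcium sensors and kinases (0.01), 6 histones (0.01), 6 WRKY factors (−0.05) and 5 bHLH factors (0.02). Single members came close to the threshold: TBL26 at −1.08 (0.00 in control and −2.17 in systemic leaves, adjusted p 0.0548), UGT85A2 at −0.50 in control and −0.49 in systemic leaves (0.0567), and CSLA03 at −0.62 and −0.63 (0.065, limma). EXPA8, an expansin that loosens cell walls, had 1.01 ± 0.23 with an adjusted p of 0.11 (limma). The short lists of heat shock (0.10, 2 genes), NAC factors (0.09) and nitrate transporters (0.14), with 1 gene each for the last pair, had no member past the threshold, and 14 lists had no member measured by name.

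**Figure D4:**
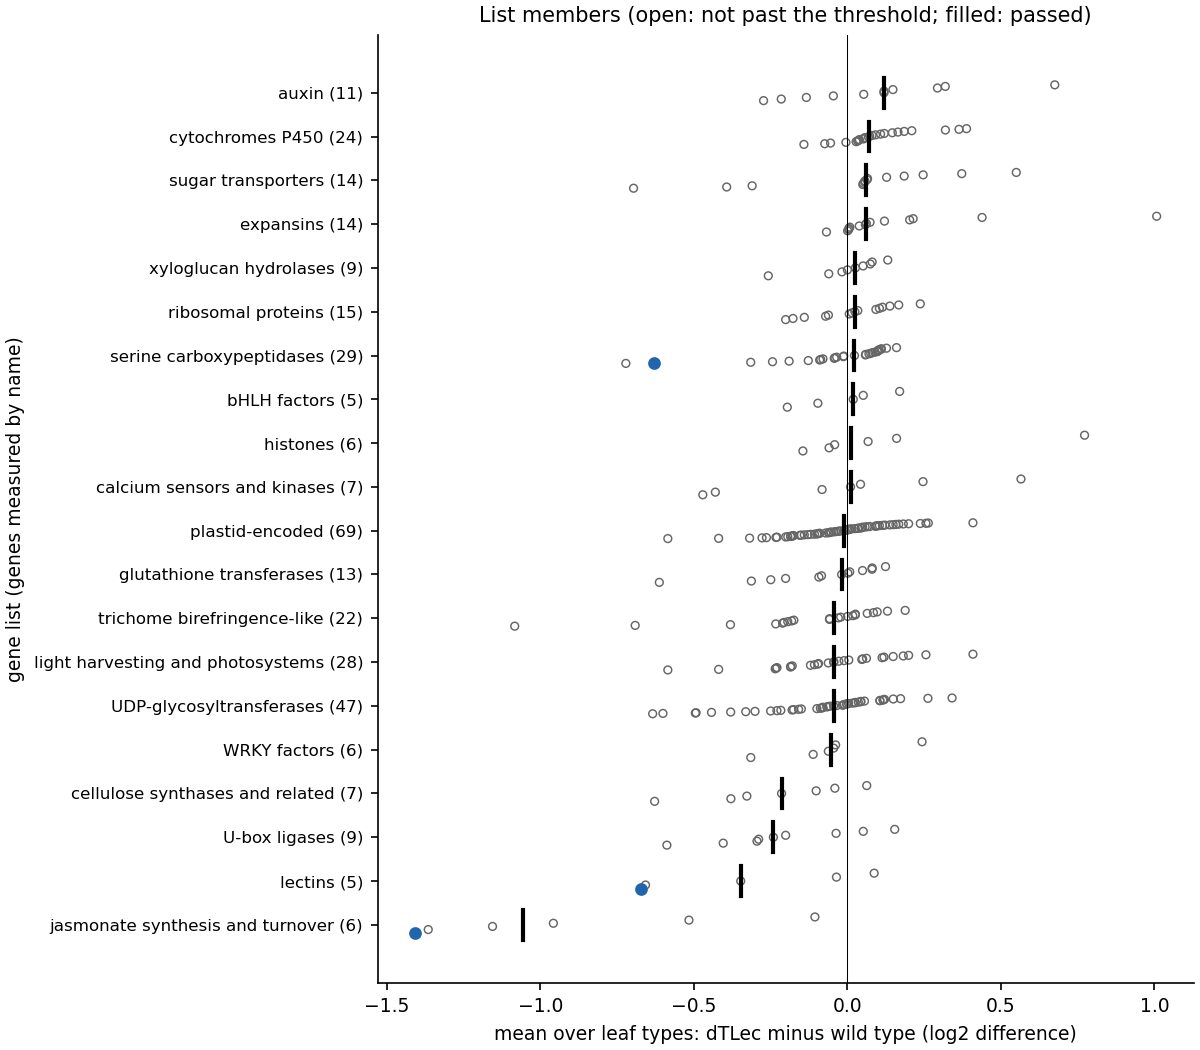
Mean genotype effect (x axis, log2 difference dTLec minus wild type) of the genes measured by name in the 20 lists with at least 5 such genes (y axis, with their number); black bars are medians, open points did not pass and filled points passed. The 6 jasmonate synthesis and turnover genes lie below 0 with a median of −1.06, and most other medians lie within 0.1 of 0. The lists were chosen with earlier results of these data known.

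Markers of the leaf and of its other cell types were measured by name for few genes. RCA, which activates the carbon-fixing enzyme Rubisco, and LHCB4.2, an antenna protein gene of photosystem II, had log2 levels between 13.57 and 13.88 on every array, as leaves have, and their genotype effects were −0.03 ± 0.07 and 0.12 ± 0.07 (adjusted p 0.879 and 0.457, limma). FMA (FAMA), a guard cell gene, had −0.03 ± 0.11, and the effects in control and systemic leaves were 0.21 and −0.26. The markers listed for trichomes, phloem, xylem, epidermis, myrosin cells and dividing cells had no named probe set, so a change in the share of these cells was not tested; in whole leaves, fewer cells of a type and less RNA per cell cannot be told apart.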

How the data were processed

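Labelled RNA from 10 µg of total RNA was hybridised to Affymetrix ATH1 arrays, per the labels' protocols. The authors deposited normalized log2 values, 1 per probe set and array; RMA and Partek are the tools named, per the submitters' processing notes, with roles and versions not given in the sources used here. At all 22746 tested probe sets the replicate 1 and replicate 2 arrays have equal means to within 1e-04, so the difference between replicate numbers had been removed before deposit, which makes the arrays of a group look closer than they were. The 64 array controls were left out. A limma 3.58.1 model (R 4.3.3) with 1 mean per group and the replicate number as a block was fitted to all 8 arrays (3 residual degrees of freedom, 4.26 added by the prior), two-sided, with Benjamini-Hochberg adjustment and a threshold of 0.05. The block has an estimate of 0 here, and leaving it out would count a degree of freedom that the removal had used. The removal makes the deviations of same-numbered arrays sum to 0, so their correlation does not show pairing.

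Array controls aside, 13513 probe sets had 1 gene in the platform annotation, 503 several and 8730 none; 13436 were matched by gene identifier to the TAIR10.1 table. Gene lists were matched by locus or symbol beginning in any letter case, organelle genes by the table's chromosome, genes of another family that share a symbol's beginning were taken out after the values were seen, and the probe set with the highest mean stood for a gene that had more than 1. The named genes were the 15 highest and 15 lowest mean effects among named probe sets that differed the same way (all 13 of the higher ones), up to 2 unnamed probe sets per direction, list members that passed, and GI. The members and lists were chosen with earlier results of these data known. The model was also run on simulated data with independent noise and equal genotype effects in both leaf types. No result given here rests on that run. A planned search of promoters for motifs was not run. Precision is limited by how few arrays there are, since arrays have no read depth; related genes can share probes.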

Additional observations from a re-analysis of the deposited data

How the results depend on the processing

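No direction turned among the 35 genes and probe sets checked in the 14 alternatives, which is no sign of stability: their groups do not overlap, so leaving out an array cannot turn them, and 4 of the settings leave the estimate as it is. The count past the threshold for the mean genotype effect was 885 without the replicate block (350 higher and 535 lower), a fit that counts a degree of freedom already used, 7 with the additive model, 197 after centring each array on its median (70 higher and 127 lower) and 57 after cyclic loess (15 higher and 42 lower). It was 135 with an intensity trend and 93 without probe sets of a mean log2 value under 5. The count that differed the same way in both leaf types, 87, was 737 without the replicate block, 7 in the additive model, 160 after centring and 48 after cyclic loess, all 48 of them among the 87. Leaving out 1 array at a time gave between 0 and 793 for the first count and between 0 and 697 for the second, and 79 of the 87 passed only without a wild-type control array. Each such fit has 1 residual degree of freedom less, and a group with 1 array is assumed to vary like the others. For the difference between leaf types the count of 0 became 1 without the replicate block and 5 with an intensity trend, and lay between 0 and 67 with 1 array left out, 67 without wild-type control replicate 1 and 44 without wild-type control replicate 2. Of the 35 checked, 16 no longer passed after cyclic loess and 32 no longer passed in the additive model. GI passed without the replicate block (0.0202), after centring (0.0429) and with an intensity trend (0.0452, limma adjusted p). It did not pass in the additive model (0.14), after cyclic loess (0.0551) or without probe sets of a mean under 5 (0.053, limma adjusted p). With 1 array left out, the effect of GI lay between 0.57 and 0.77. Normalization to nearly equal distributions removes any shift shared by all transcripts. The causes of these changes were not tested.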
